A study of Mus musculus with 19 samples.

Results

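Receptors for the peptides vasopressin, oxytocin, thyrotropin-releasing hormone (TRH), cholecystokinin (CCK) and PACAP were followed across neurons of the mouse lateral hypothalamic area. The 6 receptor genes were Avpr1a, Oxtr, Trhr, Cckar, Cckbr and Adcyap1r1, taken by name from the 52636 genes of the deposited count table. The wells came from 19 plates, each plate 1 sample, filled from 7 male mice aged 6 to 8 weeks that carried Agrp-IRES-Cre and the Ai9 reporter. All samples belong to this single group, and which mouse filled which plate is not labelled. The Cre line marks AGRP neurons with tdTomato, whose axons were used to find the borders of the area in 300 µm slices, and only non-fluorescent cell bodies were picked by hand. Of 1612 wells labelled as holding a cell of the area, 1534 had at least 1000 detected genes and were kept.

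The kept wells were divided by 2 peptide genes and by Gad1 and Gad2, the enzymes that make GABA. The Hcrt class (1065 wells) had at least 1% of counts in Hcrt, the gene of the orexins or hypocretins, peptides of arousal and feeding. The Pmch class (68 wells) had at least 1% in Pmch, the gene of melanin-concentrating hormone. Of the wells in neither, 327 had at least 5 UMIs (unique molecular identifiers, counted molecules) of Gad1 and Gad2 together and form the Gad class, and 71 had fewer and form the remaining class. A further 3 wells passed both peptide gates and are in no class.

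The label of each class was checked against marker genes. UMIs of 8 pan-neuronal genes reached 5 in 1064 of 1065 Hcrt wells, in all 68 Pmch wells, in all 327 Gad wells and in 67 of 71 remaining wells. A filter for neurons left out 16 Hcrt, 2 Gad and 10 remaining wells and 0 Pmch wells. Oligodendrocyte genes equalled or exceeded the pan-neuronal genes in 16 wells, 11 of them in the Hcrt class. The Pmch class also carried Gad1 and Gad2, with a median of 22.5 UMIs, so the Gad class holds GABA-marked neurons outside the Pmch class only. Median depth was 45722 UMIs in the Hcrt class, 59063 in the Pmch class, 24486 in the Gad class and 24969 in the remaining class. Kept wells ran from 3608 to 263078 UMIs, and plates held 44 to 86 of them.

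All 6 genes encode G protein-coupled receptors on the cell surface. The vasopressin receptor V1a (Avpr1a), the oxytocin receptor (Oxtr), the TRH receptor (Trhr) and the CCK receptors A and B (Cckar, Cckbr) act mainly through Gq, phospholipase C and calcium release. The PACAP receptor PAC1 (Adcyap1r1) acts through Gs and cyclic AMP and also through Gq. Such peptides are known to excite or modulate orexin neurons, which link energy balance to wakefulness.

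On GRCm38 with GENCODE M21, Avpr1a (ENSMUSG00000020123) lies at chr10:122448499-122453452 on the plus strand. Oxtr (ENSMUSG00000049112) lies at chr6:112473683-112489943 on the minus strand, and Trhr (ENSMUSG00000038760) at chr15:44196135-44235912 on the plus strand. Cckar (ENSMUSG00000029193) lies at chr5:53697776-53707705 on the minus strand, and Cckbr (ENSMUSG00000030898) at chr7:105425731-105470898 on the plus strand. Adcyap1r1 (ENSMUSG00000029778) lies at chr6:55451978-55501451 on the plus strand. Only Avpr1a overlaps another annotated gene, Gm48877 on the opposite strand, which had 1 UMI in the Hcrt class and 1 in the Gad class.

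The stretches just upstream of the start are shown for the 4 receptors with a promoter entry, to set them beside receptors whose pooled level is highest in the Hcrt class (Avpr1a), the Pmch class (Oxtr) and the Gad class (Cckbr and Adcyap1r1). They are the parts of the RefSeq promoter windows (GRCm38.p6) that lie before the GENCODE start, read 5′ to 3′ on the gene's strand. Capitals mark matches to the TATA box, spelled TATAAA, or the E-box, spelled CACGTG. They also mark the GC box, which reads GGGCGG, the cyclic AMP response element, which reads TGACGTCA, and the homeodomain core, whose letters are TAATTA. All were searched on both strands.
Avpr1a: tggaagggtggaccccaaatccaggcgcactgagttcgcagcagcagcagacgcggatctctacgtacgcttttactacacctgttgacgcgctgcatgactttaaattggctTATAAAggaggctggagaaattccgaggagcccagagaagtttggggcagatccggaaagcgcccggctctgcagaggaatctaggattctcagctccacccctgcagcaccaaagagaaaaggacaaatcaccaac
Oxtr: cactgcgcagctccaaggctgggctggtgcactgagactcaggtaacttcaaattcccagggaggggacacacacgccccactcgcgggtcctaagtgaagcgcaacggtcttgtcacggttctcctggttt
Cckbr: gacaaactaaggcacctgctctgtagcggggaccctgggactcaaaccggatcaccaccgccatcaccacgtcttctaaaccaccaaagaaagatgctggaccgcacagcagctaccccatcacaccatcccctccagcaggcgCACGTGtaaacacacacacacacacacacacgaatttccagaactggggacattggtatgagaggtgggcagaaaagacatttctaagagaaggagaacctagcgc
Adcyap1r1: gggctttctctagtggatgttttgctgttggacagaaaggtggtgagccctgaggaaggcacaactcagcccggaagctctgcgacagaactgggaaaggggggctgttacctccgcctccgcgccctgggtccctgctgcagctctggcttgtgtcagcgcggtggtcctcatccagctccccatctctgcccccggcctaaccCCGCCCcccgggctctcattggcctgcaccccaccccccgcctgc
These lie at chr10:122448249-122448498, chr6:112489944-112490075, chr7:105425481-105425730 and chr6:55451728-55451977. A TATA box begins 137 bases before the Avpr1a start, an E-box lies within the Cckbr stretch, and a GC box, on the other strand, 45 bases before the Adcyap1r1 start. No match lay in the 132 bases before the Oxtr start. Over 250 bases, TATAAA was in 12.4%, CACGTG in 6.02%, GGGCGG in 32.7%, TGACGTCA in 1.55% and TAATTA in 4.84% of 32851 RefSeq promoters. A match is a run of letters, and no measurement here bears on its use. Trhr and Cckar are named only.

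Avpr1a was highest in the Hcrt class. Its level, given as CPM (counts-per-million, its UMIs among all UMIs summed over a plate's wells of the class), was 57.4 ± 10.6 (mean ± SD, n = 19 plates with at least 3 wells of the class), with 38.4 in the lowest plate, a median of 56.7 and 75.2 in the highest. The Gad class followed at 27.3 ± 16.8 CPM (n = 16), from 6.13 over a median of 23.9 to 72.9. The remaining class had 7.01 ± 11.8 CPM (n = 10), with 0 as the lowest and median plate and 29.7 as the highest. In the Pmch class it was 1.33 ± 2.59 CPM (n = 13), with 0 as lowest and median and 7.17 as highest, and 6 UMIs in 68 wells. The plates of the Hcrt class all lay above those of the Pmch and remaining classes and overlapped those of the Gad class. At an equal depth of 18000 UMIs per well, 45.3% of 1003 Hcrt wells, 19.8% of 253 Gad wells, 5.36% of 56 remaining wells and 1.49% of 67 Pmch wells had an Avpr1a UMI.

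Oxtr had the opposite placement, in the Pmch class. It was at 12.4 ± 11.8 CPM there (n = 13), with plates from 0 over a median of 12.9 to 33.2, and 55 UMIs in all. The Hcrt class had 0.24 ± 0.26 CPM (n = 19), with 0.94 in its highest plate and 12 UMIs in 1065 wells. The Gad class had 0.47 ± 1.67 CPM (n = 16) from 3 UMIs. The remaining class had 1.24 ± 3.94 CPM (n = 10), and all 3 of its UMIs came from a single well of replicate 9, at 12.4 CPM. At equal depth an Oxtr UMI was found in 11.9% of Pmch wells, 0.60% of Hcrt wells, 0.79% of Gad wells and 1.79% of remaining wells. Some plates of every class were at 0, so the ranges of all classes overlapped.

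Trhr was high in the Hcrt class, at 53.0 ± 8.76 CPM (n = 19), with plates from 39.5 over a median of 51.7 to 73.3. It was at 9.20 ± 11.8 CPM in the Gad class (n = 16), from 0 over 3.83 to 35.8. The remaining class had 7.20 ± 16 CPM (n = 10), where replicate 14 stood at 51.8 and held 18 of the 30 UMIs, all in a single well. The Pmch class had 1.63 ± 2.92 CPM (n = 13), with 8.62 in the highest plate. Every Hcrt plate lay above every Gad and Pmch plate, and replicate 14 alone overlapped them from the remaining class. At equal depth, a Trhr UMI was found in 46.6% of Hcrt wells against 5.93% of Gad, 7.14% of remaining and 1.49% of Pmch wells.

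The CCK receptors were placed apart from each other. Cckar, which binds only sulfated CCK well, was at 25.3 ± 6.82 CPM in the Hcrt class (n = 19), with plates from 10.1 over 26.1 to 35.3. The Gad class had 5.05 ± 11.7 CPM (n = 16), up to 43.7, and a single well held 33 of its 41 UMIs. The remaining class had 6.14 ± 14 CPM (n = 10), up to 44.6, from 8 UMIs, and the Pmch class 1.24 ± 3.93 CPM (n = 13), up to 14.2, from 6 UMIs. The highest plates of these 3 classes overlapped the Hcrt plates. At equal depth, Cckar was detected in 28.6% of Hcrt wells, 7.14% of remaining wells, 1.49% of Pmch wells and 0.79% of Gad wells.

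Cckbr, which also binds gastrin, was scarce in the class where Cckar was highest. The Hcrt class had 0.42 ± 0.77 CPM (n = 19), with 3.14 in its highest plate and 27 UMIs in 1065 wells. In the Gad class it was at 12.5 ± 7.96 CPM (n = 16), from 0 over 11.7 to 29.6. No UMI was found in the Pmch class. The remaining class averaged 21.1 ± 61.9 CPM (n = 10), but 6 of its 10 UMIs lay in replicate 5, whose 3 wells gave 197 CPM. At equal depth 13% of Gad wells, 3.57% of remaining wells and 0.60% of Hcrt wells had a Cckbr UMI.

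Adcyap1r1 was the 1 receptor found broadly, and it was highest in the Gad class. There it was at 147 ± 28.8 CPM (n = 16), with plates from 106.3 over 142 to 196. The Hcrt class had 64.1 ± 13.5 CPM (n = 19), from 46.0 over 63.0 to 92.1. The remaining class had 55.7 ± 50.5 CPM (n = 10), from 0 over 40.5 to 156, and the Pmch class 30.9 ± 27.7 CPM (n = 13), from 0 over 21 to 100.8. Gad plates lay above all Hcrt and Pmch plates without overlap, and all other pairs of classes overlapped. Before thinning, the share of wells with a UMI was 69.5% in the Hcrt class and 66.1% in the shallower Gad class. At equal depth these shares were 52.3% and 63.2%.

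**Figure D1:**
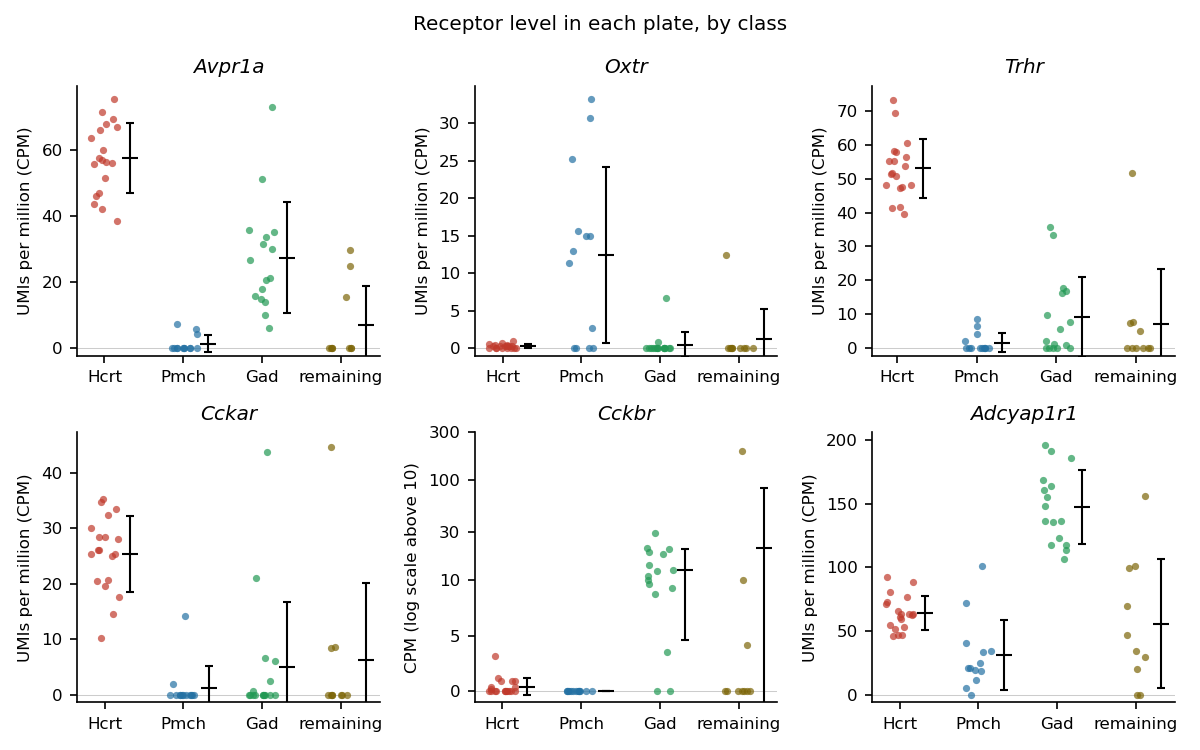
Level of each receptor in each plate (points, CPM of the plate's wells of that class) by class, with the mean and SD over plates at the right of each column and lower bars ending at the axis; the Cckbr axis is logarithmic above 10. Avpr1a, Trhr and Cckar were highest in the Hcrt class, Oxtr in the Pmch class and Adcyap1r1 in the Gad class, and the highest Cckbr point is a remaining class plate of 3 wells.

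Wells without a cell were searched for stray molecules. Wells labelled ERCC (64), Empty (21) or empty (19), apart from 1 Empty well with 100707 UMIs, had a median of 169 UMIs. Over all of them, each receptor had 0 to 2 UMIs, while Hcrt was found in 99.0% of these wells, with 3625 UMIs. As these wells held only 27814 UMIs in all, such low receptor counts do not show that stray receptor molecules were absent. In 68 wells labelled qRNA, whose content is not stated, with a median of 18251 UMIs, each receptor had 0 to 2 UMIs. The Pmch class, the deepest, had a UMI of Avpr1a in 5.88%, of Trhr in 7.35% and of Cckar in 4.41% of its wells before thinning.

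Differences between classes were tested on UMIs summed per plate and class with edgeR's quasi-likelihood test, with plate as a block. The fit took 56 sums from 17 plates and 16103 genes, and fold changes are relative to its TMM scaling. The classes come from the same plates, and each class enters 3 of the 6 comparisons.

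Against the Pmch class, the Hcrt class was higher in 4 of 6 receptors, where 15.4% of all genes tested were higher, and lower in 1, where 6.5% of all genes were lower. The median over all genes was 0.37 on the log2 scale and over the receptors 3.66. Avpr1a was higher by 5.49 ± 0.52 (log2 fold change ± SE, edgeR adjusted p = 2.1e-14), Trhr by 4.75 ± 0.54 (adjusted p = 2.9e-11) and Cckar by 4.74 ± 0.69 (adjusted p = 6.4e-08). Each of these was higher in 13 of 13 plates. Adcyap1r1 was higher by 1.35 ± 0.26 (edgeR adjusted p = 3.0e-05), in 11 of 13 plates. Its pooled level was 63.5 CPM in the Hcrt class and 34.5 CPM in the Pmch class, a smaller difference than in the fit. Oxtr fell by 4.90 on the log2 scale (SE 0.73, edgeR adjusted p = 1.9e-07) and was lower in the Hcrt class in 9 of 13 plates. Cckbr, with no UMI in the Pmch class, did not pass (edgeR adjusted p = 0.206). Leaving out 1 replicate moved Avpr1a to 6.45 (without replicate 6), Trhr to 5.35 (without replicate 8) and Cckar to 6.19 (without replicate 10). Over the other alternatives Avpr1a ran from 4.96 to 7.60, Trhr from 3.92 to 5.82, Cckar from 3.80 to 7.72 and Oxtr from -5.64 to -4.25, and all of these passed.

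Against the Gad class, the Hcrt class was higher in 3 receptors, where 15.1% of all genes were higher, and lower in 2, where 8.48% were lower. The median over all genes was 0.15 on the log2 scale and over the receptors 0.95. Cckar was higher by 4.11 ± 0.54 (log2 fold change ± SE, edgeR adjusted p = 2.6e-09) in 15 of 16 plates, and Trhr by 3.56 ± 0.41 (adjusted p = 2.5e-11) in 16 of 16. Avpr1a was higher by 1.67 ± 0.29 (edgeR adjusted p = 3.9e-06) in 14 of 16 plates. Cckbr was lower, at -4.94 ± 0.71 (edgeR adjusted p = 8.2e-08), in 14 of 16 plates. Adcyap1r1 was lower, at -0.63 ± 0.20 (edgeR adjusted p = 0.0146), in 16 of 16 plates. Its pooled level was 63.5 CPM in the Hcrt class and 142 CPM in the Gad class, and 60.1 and 139 at equal depth. That is a larger difference than the fit with TMM scaling gave. For Avpr1a, pooled levels of 57.9 and 27.0 CPM gave a smaller difference than the fit. Oxtr did not pass (0.24 ± 0.91, edgeR adjusted p = 0.911), from 12 UMIs in the Hcrt class and 3 in the Gad class. The Adcyap1r1 call was lost with the peptide gates at 0.2% (-0.58, adjusted p = 0.115) and without the plates whose names start with Q7 (-0.45, adjusted p = 0.271). Cckar was at 2.81 without the replicate block, Trhr at 4.30 and Cckbr at -3.94 with the 0.2% gate, and these passed.

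The Gad class differed from the Pmch class in 4 receptors. It was higher in 3, where 12.2% of all genes were higher, and lower in 1, where 8.1% were lower. The median over all genes was 0.24 on the log2 scale and over the receptors 1.59. Avpr1a was higher by 3.82 ± 0.59 (log2 fold change ± SE, edgeR adjusted p = 4.4e-07) and Adcyap1r1 by 1.99 ± 0.27 (adjusted p = 1.2e-08), each in 12 of 12 plates. Cckbr passed as well (edgeR adjusted p = 3.6e-06), and against the limit of 3 UMIs over the Pmch class its pooled level was at least 17.8-fold higher in the Gad class. Oxtr was lower in the Gad class, at -5.13 ± 0.89 (edgeR adjusted p = 7.0e-06). From 55 and 3 UMIs, the pooled Oxtr level was 38.7-fold higher in the Pmch class, with a 95% counting interval of 12.6 to 194. The interval leaves out the spread between wells and plates, and the 55 UMIs lay in 15 wells. Trhr (1.19 ± 0.70, edgeR adjusted p = 0.234) and Cckar (0.64 ± 1.04, adjusted p = 0.724) did not pass, so the Gad and Pmch classes could not be ordered for these receptors. Avpr1a was at 4.77 without replicate 6 and at 5.90 with thinned wells, and Oxtr at -4.26 with DESeq2.

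The remaining class was small, with 59 wells in 10 sums. The Hcrt class was higher than it in 4 receptors, where 11.2% of all genes were higher, and lower in 1, where 4.57% were lower. Trhr was higher by 3.42 ± 0.58 (log2 fold change ± SE, edgeR adjusted p = 5.6e-06), Avpr1a by 3.34 ± 0.50 (adjusted p = 3.8e-07) and Cckar by 2.91 ± 0.71 (adjusted p = 0.0020). Without replicate 14 Trhr was at 4.94, and without replicate 9 Avpr1a was at 3.93. Over the other alternatives Trhr ran from 2.52 to 5.10, Avpr1a from 2.88 to 4.21 and Cckar from 1.80 to 3.92. Oxtr did not pass (-1.42, edgeR adjusted p = 0.450) and passed with DESeq2 (-3.61, adjusted p = 0.0347). In pooled CPM, Adcyap1r1 was at 63.5 in the Hcrt class and 61.6 in the remaining class, and at equal depth at 60.1 and 69.4. In the fit with TMM scaling it was higher in the Hcrt class by 0.95 ± 0.30 (edgeR adjusted p = 0.0219), in 7 of 10 plates. That call was lost without replicate 3 (adjusted p = 0.0687), without replicate 8 (adjusted p = 0.0620), without replicate 14 (adjusted p = 0.0561), under RLE scaling (0.54, adjusted p = 0.267), with DESeq2 (0.55, adjusted p = 0.194) and with the peptide gate at 5% (0.55, adjusted p = 0.169) or 0.2% (1.03, adjusted p = 0.0824). It was also lost with filterByExpr, with thinned wells and without the Q6 plates (adjusted p from 0.0552 to 0.235). Cckbr was lower, at -3.52 ± 1.04 (edgeR adjusted p = 0.0128), but at -2.02 (adjusted p = 0.292) without replicate 5 and at -3.26 (adjusted p = 0.0570) without replicate 18. It was also lost with the 0.2% gate (-0.58, adjusted p = 0.879), with thinned wells, with at least 5 wells per sum, with a Gad threshold of 2 UMIs and without the Q5 or the Q8 plates (adjusted p up to 0.251). Cckar was lost with the 0.2% gate only (2.86, adjusted p = 0.0674).

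Between the Gad and remaining classes, 1 receptor was higher, where 2.99% of all genes were higher, and 0 were lower, where 2.53% were lower. This was Adcyap1r1, at 1.58 ± 0.31 (log2 fold change ± SE, edgeR adjusted p = 3.9e-04), higher in 10 of 10 plates. Avpr1a (1.66 ± 0.55) missed the threshold (edgeR adjusted p = 0.0563) and passed without replicates 1, 3, 6 or 9, with the lowest value 0.0167. It also passed with a Gad threshold of 2 UMIs (2.50, adjusted p = 0.0063), without the replicate block (1.83, adjusted p = 0.0069), without the Q5 plates (2.52, adjusted p = 0.0214) and with Hcrt and Pmch left out of totals (1.72, adjusted p = 0.0426). Cckar did not pass (-1.20, edgeR adjusted p = 0.508) and passed with the peptide gate at 5% (-2.27, adjusted p = 0.0425). Between the Pmch and remaining classes, 1 receptor was higher, where 6.69% of genes were higher, and 1 lower, where 6.49% were lower. Oxtr was higher in the Pmch class by 3.48 ± 1.17 (edgeR adjusted p = 0.0358), a call lost without replicates 2, 3, 4, 8, 11 or 18 (adjusted p up to 0.0929), with DESeq2 (2.02, adjusted p = 0.282), with the 0.2% gate (2.53, adjusted p = 0.414) and with at least 5 wells per sum (2.56, adjusted p = 0.423). That call was also lost with no filter on low counts (adjusted p = 0.0575), with neurons only (adjusted p = 0.0547) and without the plates of prefix Q5 (adjusted p = 0.210), Q7 (adjusted p = 0.0657) or Q8 (adjusted p = 0.118), and its value was 6.16 without replicate 9. Cckbr, at 0 UMIs in the Pmch class, passed as lower there (edgeR adjusted p = 0.0030) from 10 UMIs in the remaining class, 6 of them in the 3 wells of replicate 5, but did not pass with at least 5 wells per sum (adjusted p = 0.142), with thinned wells (adjusted p = 0.211), with the 0.2% gate (adjusted p = 0.351) or without the Q5 plates (adjusted p = 0.0915). Avpr1a did not pass (-2.16 ± 0.86, edgeR adjusted p = 0.0842) and passed without replicate 6 (-3.05, adjusted p = 0.0267) and without replicate 14 (-2.42, adjusted p = 0.0495), and with DESeq2 (-2.42, adjusted p = 0.0198). It also passed under RLE scaling (adjusted p = 0.0499), with the 5% gate (adjusted p = 0.0104), with a Gad threshold of 10 UMIs (adjusted p = 0.0362) and without the replicate block (-2.16, adjusted p = 0.0432). Trhr passed there with the 5% gate (-2.15, adjusted p = 0.0352) and without the replicate block (-2.01, adjusted p = 0.0499), and Cckar with the 5% gate (-3.51, adjusted p = 0.0025).

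The scaling moved the balance of calls over all genes more than the calls of the receptors. With RLE scaling in place of TMM, the median of all genes moved by -0.16 on the log2 scale for Hcrt against Pmch, -0.24 for Hcrt against Gad, -0.42 for Hcrt against remaining, -0.18 for Gad against remaining and -0.27 for Pmch against remaining, and by 0.08 the other way for Gad against Pmch. Genes called higher and lower were then 1768 and 1317 against 2487 and 1047 with TMM for Hcrt against Pmch. They were 1510 and 2155 against 2427 and 1366 for Hcrt against Gad, and 630 and 1336 against 1801 and 736 for Hcrt against remaining. For Gad against remaining they were 254 and 559 against 481 and 408, and for Pmch against remaining 658 and 1752 against 1077 and 1045. For Gad against Pmch they were 2296 and 1152 against 1960 and 1304. DESeq2 gave 1555 and 1441, 1344 and 2331, 649 and 1566, 309 and 427, 745 and 1690, and 2317 and 1193 in the same order. No receptor that passed changed direction under either scaling. Adcyap1r1 in the Hcrt class lay further below the Gad class with RLE, at -0.89 (edgeR adjusted p = 4.3e-04).

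**Figure D2:**
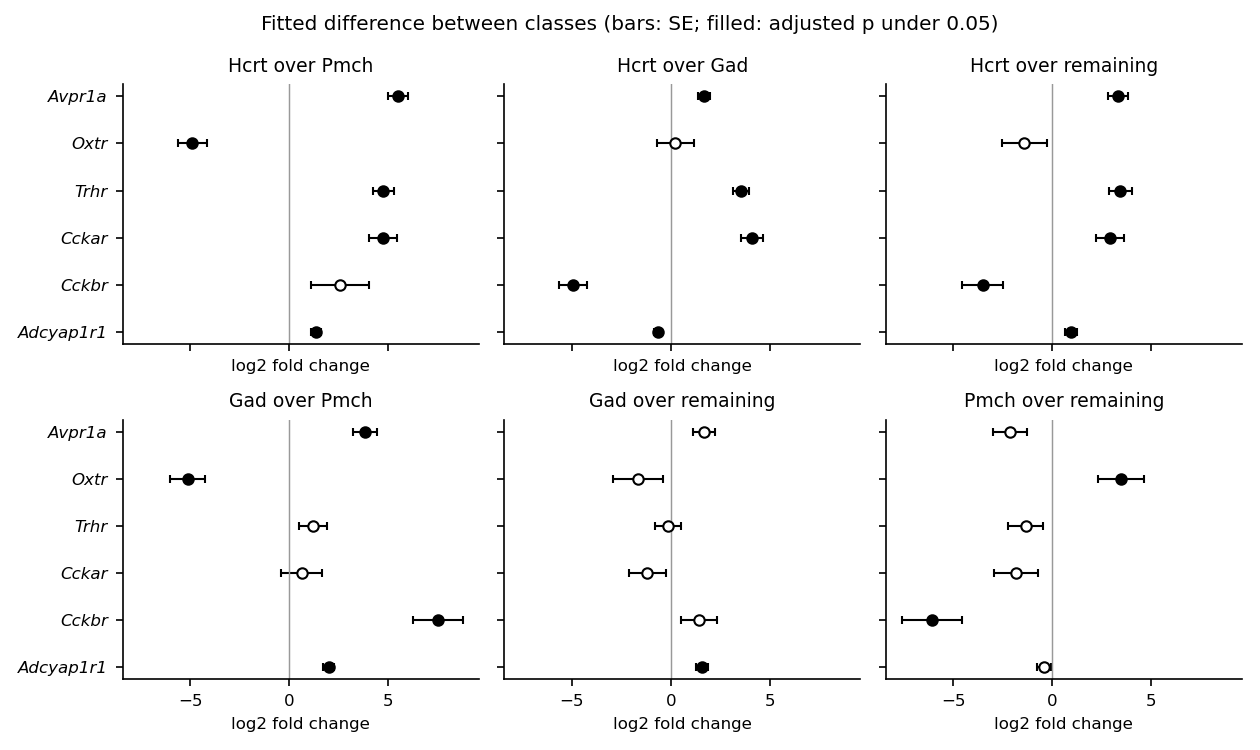
Log2 fold change of each receptor (x axis) in the 6 comparisons of classes, with the first-named class over the second, bars for 1 SE, filled points for an adjusted p under 0.05 and open points otherwise. Avpr1a, Trhr and Cckar lie to the right in the 3 panels that start with Hcrt, and the wide bars of Cckbr and Oxtr belong to classes with few or no UMIs.

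The genes of the peptides themselves were at their highest pooled levels in the remaining class. Of 71 remaining wells, 12 had an Avp UMI, 8 an Oxt UMI, 10 a Trh UMI, 7 a Cck UMI and 14 an Adcyap1 UMI. Pooled levels there were 6117 CPM for Avp (vasopressin), 2860 for Oxt (oxytocin), 400 for Trh, 36.8 for Cck and 58.4 for Adcyap1 (PACAP). In the Hcrt class they were 3.07 CPM for Avp, 3.85 for Oxt, 0.17 for Trh, 0.69 for Cck and 2.51 for Adcyap1. The Gad class had 3.68 CPM for Avp, 6.17 for Oxt, 0.11 for Trh, 7.03 for Cck and 2.81 for Adcyap1, and the Pmch class had 5.26 for Avp, 2.06 for Oxt, 4.57 for Adcyap1 and no UMI of Trh or Cck. In UMIs, the 71 remaining wells held 11626 of Avp, 5435 of Oxt and 760 of Trh, more than the other classes together, while more UMIs of Adcyap1 (135) lay in the 1065 Hcrt wells than in the remaining wells. Of 5 ligand genes tested, the Hcrt, Gad and Pmch classes were each lower than the remaining class in 4, with none higher, where 4.57%, 2.53% and 6.49% of all genes were lower, and no ligand passed with edgeR in the comparisons among those 3 classes. Against the remaining class, the Hcrt class was at -9.86 ± 0.64 for Trh (log2 fold change ± SE, edgeR adjusted p = 1.6e-17) and -8.03 ± 0.94 for Avp (adjusted p = 5.6e-08). DESeq2 called 2, 2 and 3 ligands lower in the Hcrt, Gad and Pmch classes. With it, Trh (-10.38, adjusted p = 0.105) and Avp (-1.73, adjusted p = 0.360) did not pass there, while Avp passed as higher in the Hcrt class than in the Gad class (7.57, adjusted p = 5.9e-12) and the Pmch class (5.89, adjusted p = 1.7e-06). Other receptors of these families were scarce in the Hcrt class, with 6 UMIs of Avpr1b, 8 of Avpr2, 3 of Trhr2, 9 of Vipr1 and 42 of Vipr2. Vipr2, a receptor for VIP and PACAP, was the only one tested and passed in 0 of 6 comparisons.

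The signalling genes downstream of Gq were lower in the Hcrt class than in the Gad class in 5 of 13 tested and higher in 0, where 8.48% of all genes were lower and 15.1% higher. Their median log2 fold change was -0.52, against 0.15 over all genes. Plcb1, a phospholipase C that Gq activates, was at -4.65 ± 0.38 (edgeR adjusted p = 3.5e-17), and pooled levels were 2.67 CPM in the Hcrt class and 75.4 in the Gad class. Itpr2, an IP3 receptor, was at -1.93 ± 0.62 (edgeR adjusted p = 0.0153) and Prkce, a protein kinase C, at -1.08 ± 0.18 (adjusted p = 9.1e-07). Against the Pmch class, 3 of 13 were higher and 2 lower, where 15.4% of all genes were higher and 6.5% lower, with a median of 0.31 (0.37 over all genes) that was -0.15 with DESeq2. Itpr1 was higher by 2.96 ± 0.44 (edgeR adjusted p = 1.1e-07), while Plcb1 was at -2.33 ± 0.45 (adjusted p = 3.6e-05).

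The genes of the Gs and cyclic AMP arm held 2 higher and 7 lower of 18 against the Gad class, with a median of -0.17, where 15.1% of all genes were higher and 8.48% lower. Against the Pmch class they held 6 higher and 4 lower, with a median of 0.32, where 15.4% of all genes were higher and 6.5% lower. Adcy8, a calcium-stimulated adenylyl cyclase, was higher in the Hcrt class by 4.57 ± 0.47 over the Gad class (edgeR adjusted p = 8.4e-13) and by 4.36 ± 0.57 over the Pmch class (adjusted p = 3.9e-09). Adcy2, another adenylyl cyclase, was lower, at -4.44 ± 0.43 (edgeR adjusted p = 3.9e-14) and -3.35 ± 0.49 (adjusted p = 7.4e-08). Gnas, the gene of the Gs alpha subunit, was higher by 2.04 ± 0.15 over the Pmch class (edgeR adjusted p = 3.1e-17).

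Among cation channels and exchangers that Gq signalling can open or drive, 1 of 10 was higher and 4 lower in the Hcrt class than in the Gad class, with a median of -0.25, beside 15.1% and 8.48% of all genes. Against the Pmch class 2 were higher and 2 lower, with a median of 0.76, beside 15.4% and 6.5% of all genes. Trpc7, a channel opened by diacylglycerol, was higher by 2.82 ± 0.46 over the Gad class (log2 fold change ± SE, edgeR adjusted p = 1.0e-06) and by 3.19 ± 0.57 over the Pmch class (adjusted p = 7.8e-06). Trpc5 was lower, at -5.91 ± 0.45 (edgeR adjusted p = 2.7e-18) and -5.64 ± 0.49 (adjusted p = 8.2e-16), and Trpc4 at -3.01 ± 0.52 (adjusted p = 2.8e-06) and -3.13 ± 0.55 (adjusted p = 7.2e-06).

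Of 14 genes that regulate receptors, 1 was higher and 6 lower in the Hcrt class than in the Gad class, with a median of -0.54, beside 15.1% and 8.48% of all genes. Against the Pmch class 3 were higher and 0 lower, with a median of 0.16 that was -0.14 with DESeq2, beside 15.4% and 6.5% of all genes. Rgs2, which speeds the shut-off of Gq, was higher by 1.29 ± 0.14 over the Gad class (log2 fold change ± SE, edgeR adjusted p = 4.8e-12) and by 2.48 ± 0.17 over the Pmch class (adjusted p = 3.3e-21). Rgs8 was at -4.45 ± 0.50 (edgeR adjusted p = 1.3e-11) and Rgs10 at -2.31 ± 0.20 (adjusted p = 5.9e-14) against the Gad class. Of 7 peptide-cleaving enzymes tested, 0 were higher in the Hcrt class in either comparison, while 3 were lower than in the Gad class (8.48% of all genes) and 2 lower than in the Pmch class (6.5% of all genes). Trhde, which degrades TRH, was at -2.81 ± 0.71 (edgeR adjusted p = 0.0014) and -2.69 ± 0.78 (adjusted p = 0.0079) in the Hcrt class, with pooled levels of 0.66 CPM there, 4.74 CPM in the Gad class and 4.67 CPM in the Pmch class.

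Counting receptors per well at 18000 UMIs, Hcrt wells carried more kinds than the other classes. At least 1 of the 6 was found in 90.1% of 1003 Hcrt wells, 73.9% of 253 Gad wells, 58.9% of 56 remaining wells and 38.8% of 67 Pmch wells. At least 2 were found in 58.3% of Hcrt wells, 26.5% of Gad wells, 10.7% of remaining wells and 7.46% of Pmch wells. Before thinning, these shares were 79.3%, 31.5%, 16.9% and 20.6%. Among Hcrt wells 99 had none, 319 had 1, 357 had 2, 201 had 3, 26 had 4 and 1 had 5. A well that shows no UMI of a receptor at this depth may still express it.

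**Figure D3:**
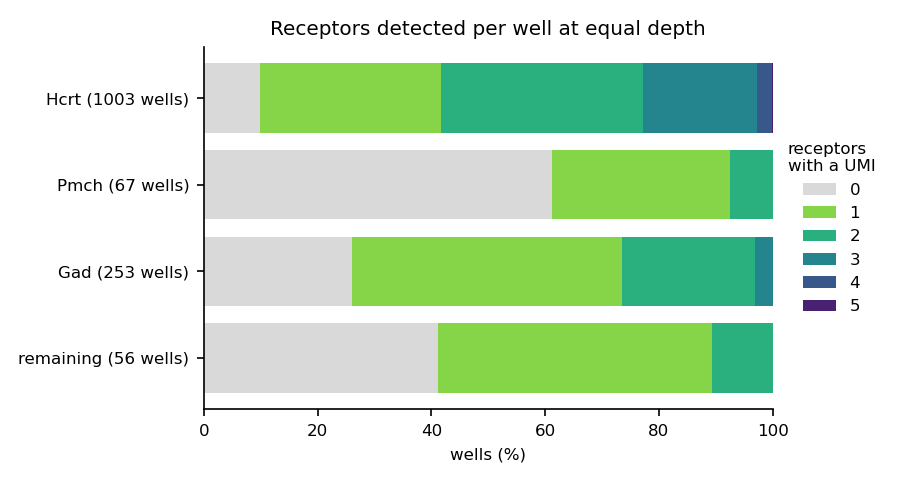
Share of wells (x axis, percent) by the number of the 6 receptors with at least 1 UMI after thinning each well to 18000 UMIs, for the 4 classes. The Hcrt bar has the smallest part at 0 (9.87%) and the largest part at 2 or more (58.3%).

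Within the Hcrt class, the 4 receptors found often were combined nearly as their separate shares predict. Avpr1a and Trhr were found together in 203 wells, against 211 expected from their shares within each plate, a ratio of 0.96 (95% counting interval 0.84 to 1.09). Avpr1a with Cckar gave 125 against 131 (0.96, 0.80 to 1.12), and Avpr1a with Adcyap1r1 gave 237 against 237 (1.00, 0.89 to 1.12). Trhr with Cckar gave 142 against 135 (1.05, 0.90 to 1.22), Trhr with Adcyap1r1 243 against 246 (0.99, 0.88 to 1.10) and Cckar with Adcyap1r1 152 against 150 (1.02, 0.87 to 1.17). All 6 intervals include 1. They treat the expected number as fixed and are wider than the shares of the receptors allow, so modest departures could be missed. Without thinning, where depth differed between wells, the 6 ratios ran from 1.03 to 1.08. At 10000 UMIs they ran from 0.94 to 1.18, the highest for Trhr with Cckar (89 against 75.6). Oxtr and Cckbr were each found in 6 wells, too few for a comparison, and no well had both.

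The most frequent combinations, counted as the full set of receptors found in a well, were likewise mixed. Adcyap1r1 alone was found in 10.3% of the 1003 wells. Avpr1a with Adcyap1r1 was found in 94 wells, Trhr alone in 93, Avpr1a alone in 90, Trhr with Adcyap1r1 in 89 and these 3 together in 82. Avpr1a, Trhr, Cckar and Adcyap1r1 with no other receptor were found in 24 wells, and these 4 with Oxtr in 1 more.

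**Figure D4:**
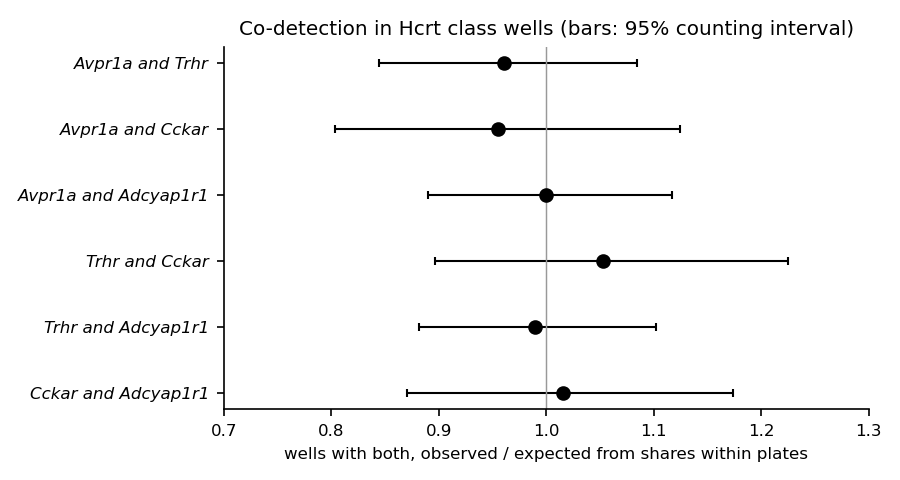
Number of Hcrt class wells with both receptors of a pair, divided by the number expected from the shares within each plate (x axis), for the 6 pairs of Avpr1a, Trhr, Cckar and Adcyap1r1 in 1003 wells at equal depth, with 95% counting intervals. The ratios lie between 0.96 and 1.05 and every interval includes 1. The intervals treat the expected number as fixed and are wider than the shares allow.

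Hcrt wells with and without a UMI of 1 receptor were then compared for all other genes, by edgeR's quasi-likelihood test on sums per plate and side (19 plates, 14881 genes). The receptor that made the split was not tested. No other of the 6 receptors passed in any of the 4 splits that could be fitted. The closest was Avpr1a in the Cckar split, at -0.28 ± 0.12 (log2 fold change ± SE, edgeR adjusted p = 0.446). Splits by Oxtr and by Cckbr had no plate with 3 wells on each side and could not be fitted.

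Among the 4 splits, the one by Avpr1a gave the most genes at the adjusted threshold. Wells with an Avpr1a UMI (454) against wells without (549) gave 37 higher genes (0.249% of those tested) and 59 lower ones (0.396%). At an unadjusted p under 0.05 in edgeR there were 1124 (7.55%), fewer than in the Cckar split. Cxcl14, a chemokine, was at 6.88 ± 5.28 CPM with and 23.9 ± 9.36 CPM without Avpr1a (mean ± SD, n = 19 plates each). It was at -1.84 ± 0.24 on the log2 scale (edgeR adjusted p = 8.4e-07) and higher with Avpr1a in 0 of 19 plates. Prkch, a protein kinase C, was at 2.99 ± 3.12 CPM with and 9.95 ± 3.94 CPM without, or -1.99 ± 0.37 on the log2 scale (edgeR adjusted p = 9.0e-04). Cxcl14 and Prkch, 2 of 8 genes listed as markers of subtypes of Hcrt neurons, were the only ones of that list to pass here, and none of the 8 passed in the other splits. Ednrb, an endothelin receptor, was at -1.42 ± 0.27 (edgeR adjusted p = 0.0010) and Cpne6, a copine that binds calcium, at -1.55 ± 0.27 (adjusted p = 0.0053).

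Genes higher with Avpr1a included Bdnf, a neurotrophin, at 188 ± 59.4 CPM with and 112.3 ± 30.9 CPM without (n = 19 plates each). It was higher by 0.73 ± 0.09 on the log2 scale (edgeR adjusted p = 3.5e-06), in 18 of 19 plates. Dgkk, a diacylglycerol kinase, was higher by 0.84 ± 0.13 (edgeR adjusted p = 4.0e-05) and Lgi1, a secreted synaptic protein, by 0.85 ± 0.20 (adjusted p = 0.0171). Depth moved with this split, with a median of 52002 UMIs in wells with and 43033 in wells without Avpr1a before thinning, and its part in the result was not tested. Oligodendrocyte genes made up 0.0270% of UMIs in wells with and 0.0432% in wells without Avpr1a, and the 7 genes named here passed with neurons only. Cxcl14 and Ednrb passed under all 8 alternatives run for this split and Prkch under all 7 that tested it. With wells thinned to 10000 UMIs, Bdnf (0.41, adjusted p = 0.514), Dgkk (0.49, adjusted p = 0.143) and Cpne6 (-1.72, adjusted p = 0.0650) did not pass.

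**Figure D5:**
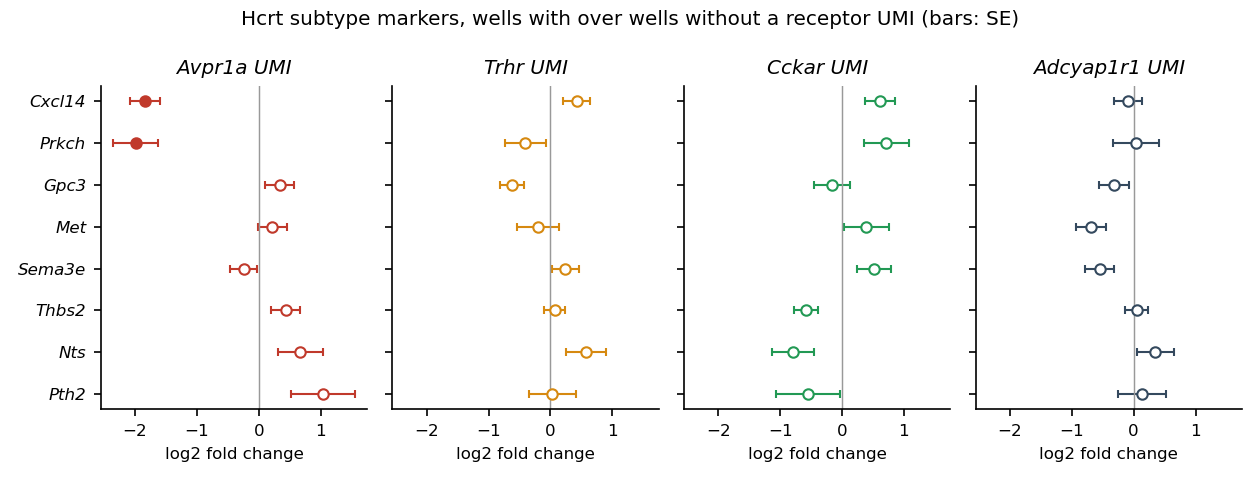
Log2 fold change (x axis) of 8 subtype markers of Hcrt neurons between wells with and wells without a UMI of the receptor named above each panel, with bars for 1 SE, filled points for an adjusted p under 0.05 and open points otherwise. Cxcl14 and Prkch in the Avpr1a panel, at -1.84 and -1.99, are the only filled points.

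The other 3 splits gave little that held. The Trhr split (467 wells with, 536 without) gave 0 higher genes and 1 lower gene (0.00672%), beside 710 (4.77%) at an unadjusted p under 0.05. That gene was Gal, the peptide galanin, at 79.4 ± 23.5 CPM with and 116.8 ± 40.7 CPM without Trhr (n = 19 plates each), or -0.56 ± 0.09 on the log2 scale (edgeR adjusted p = 0.0010). With a second random thinning of the same wells Gal was at -0.17 (edgeR adjusted p = 1.00). Oligodendrocyte genes made up 0.0577% of UMIs in wells with and 0.0155% in wells without Trhr, and with neurons only Gal was at -0.56 (edgeR adjusted p = 0.0011).

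The Cckar split (287 wells with, 716 without) gave 6 higher (0.0403%) and 33 lower genes (0.222%), beside 1278 (8.59%) at an unadjusted p under 0.05. Calb2, the calcium-binding protein calretinin, was at 393 ± 131 CPM with and 259 ± 57.0 CPM without (n = 19 plates each), or higher by 0.53 ± 0.08 on the log2 scale (edgeR adjusted p = 1.7e-04). Htr2c, a serotonin receptor, was higher by 0.54 ± 0.12 (edgeR adjusted p = 0.0315) and Tmem114 by 0.49 ± 0.11 (adjusted p = 0.0135), while Cidea was at -0.63 ± 0.13 (adjusted p = 0.0063) and Dgkk at -0.57 ± 0.14 (adjusted p = 0.0459). With a second random thinning none of these 5 passed, with Calb2 at 0.34 (edgeR adjusted p = 0.393), and without thinning Dgkk was at 0.025. Mobp, a myelin gene, was at -6.39 ± 0.43 (edgeR adjusted p = 3.7e-17), with 0.37 ± 0.75 CPM with and 42.9 ± 72.0 CPM without Cckar. Oligodendrocyte genes made up 0.00398% of UMIs in wells with and 0.0475% in wells without Cckar. With neurons only, Mobp was at -1.60 (edgeR adjusted p = 0.572).

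The Adcyap1r1 split (525 wells with, 478 without) gave 0 higher and 0 lower genes (0% each) with edgeR and 0 with DESeq2, beside 701 (4.71%) at an unadjusted p under 0.05 in edgeR. In a simulation of the Trhr split, 93% of genes changed 4-fold and 73% of genes changed 2-fold were recovered, with 6 false calls. It changed only genes with more UMIs than a test required, held no plate differences and took the sides as cleanly split. Recovery in the real splits may be lower, and smaller differences could be missed.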

How the data were processed

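The values deposited by the authors are raw counts, 1 column for each well. A second deposited table states the content and plate of each well, its number of detected features and its percent of spike-in (ERCC) counts. Smart-SCRB libraries place the barcode of the well and a UMI on read 1, per the labels' protocols. The tools listed are bcl2fastq 2.20, cutadapt 2.1.0, STAR 2.7.5c, STARsolo, Seurat 2.3.4 and R 3.4.3, with the build GRCm38, per the submitters' processing notes. The annotation release, use of strand and UMI collapsing are not given in the sources used here, and the counts are called UMIs from the design of read 1. Of the gene identifiers, 99.6% were found in GENCODE M21.

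Wells of the area with at least 1000 features were classed by Hcrt, Pmch and Gad counts among all gene counts, without spike-ins. Doublets were not called. Each well was filled by hand, which does not exclude a well with several cells, and this was not tested. The 3 wells that passed both peptide gates had a median of 147770 UMIs, against 45722 in the Hcrt class. No 2 kept wells held identical counts. UMIs were summed per plate and class (at least 3 wells) and fitted with edgeR 4.0.16 (TMM, robust quasi-likelihood test, plate as block, R 4.3.3) for genes with at least 30 UMIs in all and a UMI in at least 5 sums. All p-values are two-sided, adjusted by Benjamini-Hochberg over all genes of a comparison, with 0.05 as the threshold. The SE is the absolute log2 fold change over the square root of the F statistic. DESeq2 1.42.0 was an alternative, with adjusted p-values it did not give left out. For detection, wells were thinned to 18000 UMIs, which left out 62 Hcrt, 1 Pmch, 74 Gad and 15 remaining wells. Splits used thinned detection and unthinned sums. Intervals are exact 95% intervals for counting error only, and a class at 0 was set at 3 UMIs for bounds.

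With 19 plates from 7 mice, plates can share a mouse, which makes p-values too small. The replicates are numbered in accession order, and plate pairs the classes because they share a plate. On simulated counts for the Hcrt and Gad classes, 84% of genes changed 4-fold and 43% of genes changed 2-fold were recovered. Calls were also made for 11 unchanged genes. The simulated counts held no plate differences, and only genes with more UMIs than a test required were changed. The receptors, lists, tests and alternatives were chosen with earlier results of these data known. Per list and comparison, up to 4 members with the largest passing change could be named. In a split, up to 3 genes in each direction could be named that passed at 20 CPM or more and moved 1 way in 80% or more of the plates. Predicted and mitochondrial genes were left out of these.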

Additional observations from a re-analysis of the deposited data

Results flagged for a closer look

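Of 6 groups of 10 plates examined, all in the remaining class, 4 held a plate far from the others. The limit used is passed by about 1 in 20 groups by chance when values follow a normal distribution. That does not describe these, with 9 of 10 plates at 0 for Oxtr, 6 for Trhr, 7 for Cckar and 7 for Cckbr. Oxtr stood at 12.4 CPM in replicate 9, from 3 UMIs in a single well, with every other plate at 0. Trhr stood at 51.8 CPM in replicate 14, from 18 UMIs in a single well of its 9, with the next plate at 7.75. Cckar stood at 44.6 CPM in replicate 2, from 2 UMIs in a single well of its 3, with the next plate at 8.55. Cckbr stood at 197 CPM in replicate 5, from 6 UMIs over 3 wells, 5 of them in a single well, with the next plate at 10.1.

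A well labelled Empty in replicate 15 held a signal although its label names no cell. It had 100707 UMIs and 5682 features, among them 37 UMIs of Adcyap1r1, 45 of Gad2, 22 of Gad1 and 159 of Hcrt. The other wells labelled ERCC, Empty or empty had 2 Adcyap1r1 UMIs in all and a median of 169 UMIs.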

How the results depend on the processing

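The number of genes called was 3534 for Hcrt against Pmch, 3793 for Hcrt against Gad, 2537 for Hcrt against remaining, 3264 for Gad against Pmch, 889 for Gad against remaining and 2122 for Pmch against remaining. In that order of comparisons, the 0.2% peptide gate gave 1687, 2039, 1176, 1551, 251 and 825. The filterByExpr rule, which tests fewer genes, gave 2111 for Hcrt against Pmch, 2426 for Hcrt against Gad, 1504 for Hcrt against remaining and 465 for Gad against remaining. At least 5 wells per sum gave 2298 for Hcrt against Pmch, 456 for Gad against remaining and 1228 for Pmch against remaining. Thinning before summing gave 1616 for Hcrt against remaining and 1107 for Pmch against remaining. A fit of only the 2 classes compared gave 137 for Gad against remaining and 519 for Pmch against remaining, the former 416 without the Q8 plates and the latter 1276 without the Q5 plates. Leaving out 1 replicate gave 582 to 1008 for Gad against remaining, with 582 without replicate 19, and no other such count moved by over 1.5 times. Without the replicate block, 1671 genes were called for Gad against remaining and 3312 for Pmch against remaining.

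For the splits of Hcrt neurons, the counts were 96 for Avpr1a, 1 for Trhr, 39 for Cckar and 0 for Adcyap1r1. Splitting without thinning gave 544, 51, 6 and 49. The Avpr1a split gave 176 genes with DESeq2 and 50 with 10000 UMIs. The Trhr split gave 3 with DESeq2 and 0 both with 10000 UMIs and with the second thinning. The Cckar split gave 13 with filterByExpr, 13 with neurons only and 23 with the second thinning. Without the replicate block, the splits gave 51 for Avpr1a, 24 for Cckar and 1 for Adcyap1r1. The block changed the call of Lgi1 in the Avpr1a split, of Gal in the Trhr split and of Htr2c, Cidea and Dgkk in the Cckar split. The cause of these shifts was not tested.

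The calls of the receptors in Hcrt against Pmch and in Gad against Pmch held under all alternatives run. In the class comparisons, directions changed only for receptors that did not pass as reported. Oxtr in Hcrt against Gad was -1.38 with DESeq2, -0.026 with 5 wells, -0.069 with the 0.2% gate, -0.16 without the replicate block, -0.063 without Q5 and -0.28 without Q8. Cckbr in Hcrt against Pmch was -0.96 with DESeq2. Trhr in Gad against Pmch was -0.22 with the 0.2% gate. Without the Q6 plates, Oxtr was 1.18 in Hcrt against remaining and 0.95 in Gad against remaining. Trhr in Gad against remaining was 0.032 with DESeq2, 1.37 without Q7 and 0.63 with only 2 classes, and Cckar there was 0.29 without the replicate block and 0.29 without Q6. Leaving out 1 replicate, Oxtr ran from -1.80 to 1.37 in Hcrt against remaining and from -2.30 to 1.34 in Gad against remaining, the high ends without replicate 9. Trhr ran from -0.35 to 1.37 in Gad against remaining and from -2.26 to 0.093 in Pmch against remaining, the high ends without replicate 14.

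In the Avpr1a split, Trhr was 0.070 and Adcyap1r1 0.20 without thinning, Trhr 0.048 and Cckar 0.024 with the second thinning and Gpc3 -0.043 with 10000 UMIs. In the Trhr split without thinning, Avpr1a was 0.27, Adcyap1r1 0.13 and Thbs2 -0.049. With the second thinning there, Adcyap1r1 was 0.045, Prkch 0.13 and Thbs2 -0.53, and with 10000 UMIs Avpr1a was 0.040, Cckar -0.016, Cxcl14 -0.11 and Thbs2 -0.47. In the Cckar split, Trhr was 0.060 with DESeq2, 0.060 with RLE, 0.050 with filterByExpr, 0.027 without the replicate block, 0.010 with the second thinning and 0.16 with 10000 UMIs. Without thinning there, Trhr was 0.025, Adcyap1r1 0.10, Pth2 0.19, Nts 0.029 and Dgkk 0.025, although Dgkk had passed at -0.57, and Sema3e was -0.070 with the second thinning. In the Adcyap1r1 split without the replicate block, Pth2 was -0.027, Prkch -0.039 and Thbs2 -0.070. Prkch there was -0.39 without thinning, -0.25 with the second thinning and -0.29 with 10000 UMIs, and Thbs2 -0.17 and -0.52 with the last 2 settings.

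The 60 alternatives for pairs of receptors stayed within the counting interval of the reported ratio. These intervals are wide, above all for pairs with Oxtr or Cckbr, so this was a weak check. Cckar with Cckbr moved from 1.16 (interval 0.14 to 4.16) to 0.38 with the 0.2% gate. Trhr with Cckar moved from 1.05 to 1.18 with 10000 UMIs. Few UMIs limit Oxtr and Cckbr in the Hcrt class and all receptors in the remaining class.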

Other observations

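Within the Gad and Pmch classes, neurons with and without a receptor UMI were described at 18000 UMIs per well, without a test, for genes chosen with earlier results of these data known. Of 67 Pmch wells, 8 had an Oxtr UMI. Cartpt, a feeding-related peptide gene, was detected in 25.0% of these 8 and in 76.3% of the other 59. Tacr3, a neurokinin receptor, was detected in 37.5% against 83.1%, and Nptx1, a synaptic pentraxin, in 25.0% against 78.0%. The 20 Pmch wells with an Adcyap1r1 UMI also had Cartpt less often than the 47 without, at 45.0% against 80.9%. For Tacr3 the shares were 55.0% against 87.2% and for Nptx1 45.0% against 83.0%. Of these 20 wells, 4 were among the 8 with an Oxtr UMI, so the patterns partly rest on the same wells.

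Of 253 Gad wells, 50 had an Avpr1a UMI. Among these, Mc4r, the melanocortin receptor of the feeding pathway, was detected in 38.0% against 27.6% of wells without Avpr1a. Calcr, the calcitonin receptor, was detected in 46.0% against 32.5%, and Adcyap1r1 in 76.0% against 60.1%. A higher share with Avpr1a was not particular to these genes. It was also seen for Penk, Cartpt, Gal, Tac2, Nts, Cckar and Tac1, the substance P gene. Slc32a1, Slc17a6, Crh, Oxtr, Trhr and Cckbr were detected less often with Avpr1a. Tac1 was detected in 15.2% of the 33 Gad wells with a Cckbr UMI and in 35.0% of those without. Trhr, by contrast, was detected in 15.2% of the wells with and 4.55% of the wells without Cckbr. Tac1 was also less frequent in the 15 Gad wells with a Trhr UMI, at 6.67% against 34.0% of those without. The 3 wells that passed both peptide gates held 8 UMIs of Avpr1a, 11 of Trhr, 4 of Cckar and 12 of Adcyap1r1, and 0 of Oxtr and of Cckbr.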
